A study of Homo sapiens with 15 samples.

Results

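RNA from HEK-293 Trex cells that expressed UPF1 isoform 1 was compared with RNA from the same kind of cell that expressed UPF1 isoform 2. HEK-293 is an established human embryonic kidney line, and the Trex form carries a tetracycline repressor, so that doxycycline switches a transgene on. The comparison used 6 of the 15 libraries of the series: 3 of total RNA with CLIP-tagged isoform 1 (UPF1-1) and 3 of total RNA with CLIP-tagged isoform 2 (UPF1-2). The 3 total RNA libraries of a line with CLIP-tagged GFP entered the model for its estimate of the spread and are given beside the results. The 6 libraries of RNA purified with the tagged proteins served as a second readout. Cells of all groups received 200 ng/mL doxycycline. Each construct was in a line of its own, and no second line per construct was among the samples, so a difference caused by the line and one caused by the protein cannot be told apart. The labels do not say whether the replicates came from separate cultures, so that p-values measure only the spread between these libraries.

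UPF1 is an ATP-driven RNA helicase that is needed for nonsense-mediated decay (NMD), the pathway that degrades mRNAs on which translation stops too early and many normal mRNAs with upstream reading frames, long 3′ untranslated regions or introns behind the stop codon. UPF1 is phosphorylated by SMG1 on such mRNAs, and phosphorylated UPF1 recruits the endonuclease SMG6 and adaptors such as SMG5, which bring decapping and deadenylation. Alternative splicing gives UPF1 a shorter or a longer regulatory loop beside its RNA channel, and isoform 1 has the longer one. Several mRNAs of the integrated stress response, the programme in which phosphorylation of eIF2α slows translation and the transcription factor ATF4 is made, are known NMD targets.

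Values were TPM, a measure of abundance per transcript length that is scaled to the same total in each library, with 1 Ensembl transcript for each of 12261 genes, so a difference is one of the listed transcript and not of a gene's whole output. UPF1 (ENSG00000005007, transcript ENST00000262803), the induced gene, had 106, 94.5 and 186 TPM in UPF1-1 cells, 68.9, 72.7 and 171 TPM in UPF1-2 cells and 3.24, 3.80 and 8.57 TPM in GFP cells. Both UPF1 lines lay far above GFP cells in every replicate, and the table does not separate the transgene from the endogenous gene or one isoform from the other. Between the UPF1 lines the difference was 0.31 ± 0.07 (SE) on the log2 scale, with a limma adjusted p of 0.036, and the call was lost without any 1 of the 3 replicate numbers (limma adjusted p of 0.059 to 0.195). Across the 9 libraries the listed genes held 12.2 to 19.0% of the TPM scale, and the replicate 3 library was the highest of its group in each group. Of the 15 marker genes of HEK-293 chosen for a check of the cell type 10 were listed, and VIM reached 113 to 184 TPM. Among 14 markers of other cell types only HBA1 (1.85 to 7.22 TPM) and EPCAM (2.62 to 6.79 TPM) were listed. EPCAM was lower in UPF1-1 cells by 0.60 and, of the HEK-293 markers, DBN1 was higher (0.52) and INA lower (-0.29); their part in the results was not tested.

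The median gene had 2.77, 2.68 and 3.76 TPM in replicates 1, 2 and 3 of UPF1-1 and 2.17, 2.42 and 4.50 TPM in those of UPF1-2. Each library was therefore set to the same median on the scale of log2(TPM + 0.5), and the libraries were compared within their replicate number, called a pair below. Differences are UPF1-1 minus UPF1-2 on that scale, which understates the change of genes with few TPM, while TPM values are printed as deposited, without that adjustment. A gene was called where limma's adjusted p was under 0.05 over the 9325 genes that reached 1 TPM or more in 3 or more of the 9 libraries.

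Total RNA of the UPF1 lines differed by many small changes. In UPF1-1 cells 512 genes were higher (5.49% of those tested) and 375 lower (4.02%), 887 in all (9.51%). The median size of a called difference was 0.34, or 1.27-fold. Of the called genes 65 reached 1.5-fold and 3 reached 2-fold. The number of calls rested on the replicate pairing and on single pairs: 451 genes were called without replicate 1, 17 without replicate 2 and 282 without replicate 3. Without the pairing 0 genes passed in limma, and 477 had a p below 0.05 before adjustment. With the pairing but without equal medians it called 74 higher and 15 lower. Where the 75th percentiles were set equal in place of the medians, 347 genes were called higher and 591 lower, so the balance of rises and falls depends on the scaling. Pair 3 gave the largest difference of the 3 pairs for 61.1% of genes called higher and for 61.3% of genes called lower. Differences of all tested genes were also widest in pair 3, with a standard deviation of 0.30 against 0.23 and 0.22 in pairs 1 and 2. The share among called genes is therefore not particular to them.

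**Figure D1:**
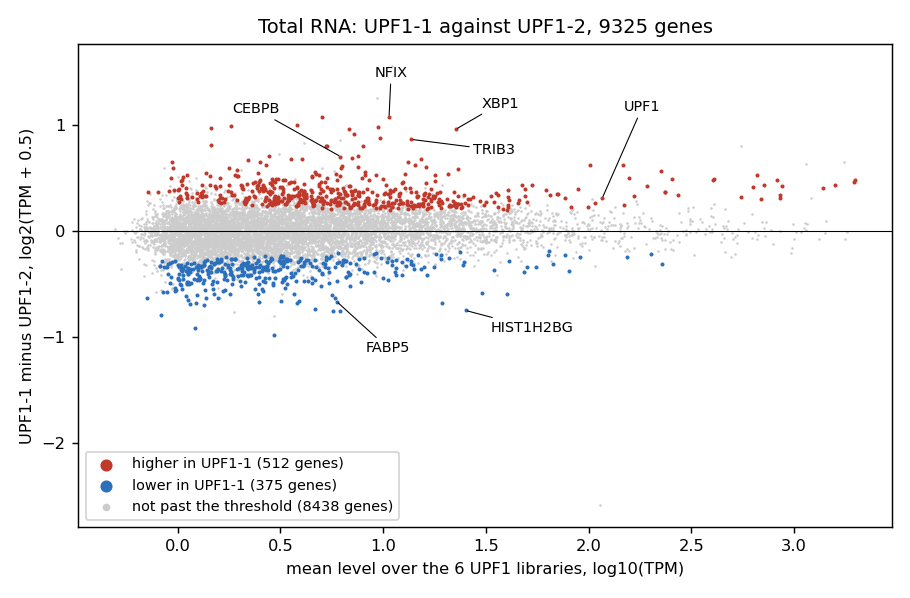
Difference between UPF1-1 and UPF1-2 total RNA (vertical axis, log2 of TPM + 0.5) against the mean level over the 6 libraries (horizontal axis, log10 of TPM) for 9325 genes, 1 point per gene. Red points are the 512 genes called higher in UPF1-1 and blue points the 375 called lower, and most of them lie within 1.5-fold of 0.

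The genes with the largest rises included several that encode stress and growth regulators. C11orf96, whose function is little known, had 6.87, 5.98 and 7.95 TPM in UPF1-1 cells and 2.11, 2.14 and 4.997 TPM in UPF1-2 cells, a difference of 1.08 ± 0.08 (SE, limma adjusted p = 0.00049). NFIX, a transcription factor of the nuclear factor I family, had 18.5, 13.1 and 13.1 TPM in UPF1-1 cells and 6.13, 6.13 and 7.06 TPM in UPF1-2 cells. Neither gene's groups overlapped, and NFIX differed by 1.07 ± 0.10 (limma adjusted p = 0.0012). TNFRSF12A, the receptor of the cytokine TWEAK, had 11.3, 7.39 and 9.02 TPM in UPF1-1 cells against 3.73, 3.56 and 5.71 TPM in UPF1-2 cells and differed by 0.96. HMOX1, the haem-degrading enzyme induced by oxidative stress, had 4.91, 4.73 and 11.1 TPM in UPF1-1 cells and 2.12, 2.65 and 6.203 TPM in UPF1-2 cells, where replicate 3 of UPF1-2 overlapped the UPF1-1 range, and differed by 0.80. CD99 encodes a membrane glycoprotein. It had 5.27, 4.99 and 10.7 TPM in UPF1-1 cells, 2.64, 2.49 and 5.81 TPM in UPF1-2 cells and 5.42, 6.06 and 10.7 TPM in GFP cells. Relative to GFP cells CD99 was at -0.19 in UPF1-1 and at -0.99 in UPF1-2, so that the UPF1-2 line was the low one. Without replicate 2, TNFRSF12A, CD99 and MANF were no longer called among the 12 genes with the largest rises, and the other 9 were.

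**Figure D2:**
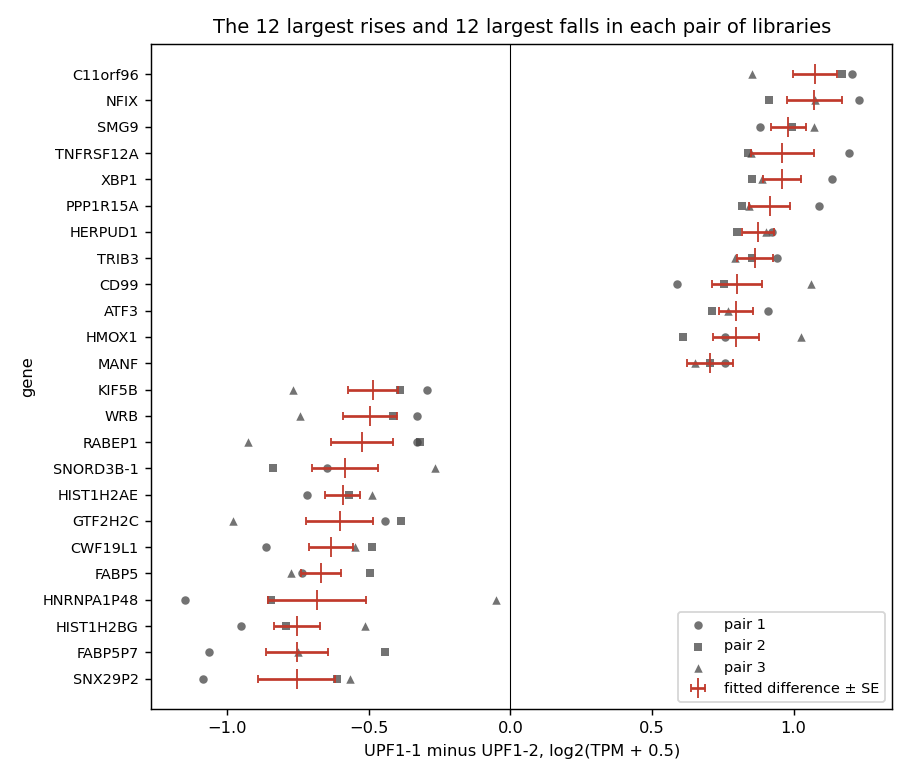
The 12 largest rises and 12 largest falls among called genes that averaged 5 TPM or more and had the same sign in each pair. Grey symbols are the 3 pairs, red marks the fitted difference ± SE, and the axis is UPF1-1 minus UPF1-2 in log2(TPM + 0.5); the rises lie closer together across pairs than falls such as HNRNPA1P48 and GTF2H2C.

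Some regulators of the integrated stress response were higher in UPF1-1 cells. Of 26 tested members of a list of such genes 11 rose and none fell, against 5.49% of all genes higher, and the list's median was 0.19 against 0.00 for all tested genes. The pair medians were 0.27, 0.17 and 0.24. TRIB3, a pseudokinase that restrains ATF4 and AKT signalling, had 18.1, 15.5 and 20.2 TPM in UPF1-1 cells, 7.40, 7.61 and 13.5 TPM in UPF1-2 cells and 4.62, 5.30 and 6.32 TPM in GFP cells. All UPF1-1 values of TRIB3 lay above all UPF1-2 values, which in turn lay above those of GFP cells, and the UPF1 lines differed by 0.86 ± 0.06 (limma adjusted p = 0.00049). PPP1R15A (GADD34), the phosphatase subunit that removes the phosphate from eIF2α, had 6.56, 5.37 and 16.1 TPM in UPF1-1 cells and 2.21, 2.56 and 10.4 TPM in UPF1-2 cells. Its groups overlapped only through replicate 3, which was high in both lines, and the difference was 0.92 ± 0.07. ATF3, a transcription factor made under stress, had 8.52, 7.64 and 14.6 TPM in UPF1-1 cells and 3.42, 4.06 and 9.88 TPM in UPF1-2 cells and differed by 0.80.

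CEBPB, a transcription factor of the same response, had 6.94, 6.14 and 10.4 TPM in UPF1-1 cells and 3.24, 3.46 and 6.96 TPM in UPF1-2 cells, a difference of 0.70 ± 0.06. DDIT3 (CHOP), the transcription factor that promotes death under lasting stress, had 21.7, 19.0 and 16.8 TPM in UPF1-1 cells against 10.4, 10.1 and 13.6 TPM in UPF1-2 cells and differed by 0.67. Both genes were higher in UPF1-1 in each pair. NUPR1 (0.65), a stress-induced chromatin protein, GADD45A (0.54), a sensor of DNA damage, CHAC1 (0.40), which degrades glutathione, SESN2 (0.37), which inhibits mTORC1, and C6orf48 (0.32), a host of small nucleolar RNAs, were the further rises with HERPUD1. GADD45A had 6.80, 6.01 and 7.80 TPM in UPF1-1 cells and 2.95, 3.12 and 8.54 TPM in UPF1-2 cells, lower in replicate 3 as deposited, and its pair values with equal medians were 0.79, 0.72 and 0.11. ATF4 mRNA itself did not pass. ATF4 had 142, 129.6 and 195 TPM in UPF1-1 cells and 116, 115 and 223 TPM in UPF1-2 cells, a difference of 0.03 ± 0.05 (limma adjusted p = 0.76), and its sign changed with the 75th percentiles set equal (-0.0148), with a filter of 5 TPM (-0.0048) and with chromosome medians set equal (-0.0501). The count of 11 was 10 without replicate 1, 5 without replicate 2 and 9 without replicate 3.

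**Figure D3:**
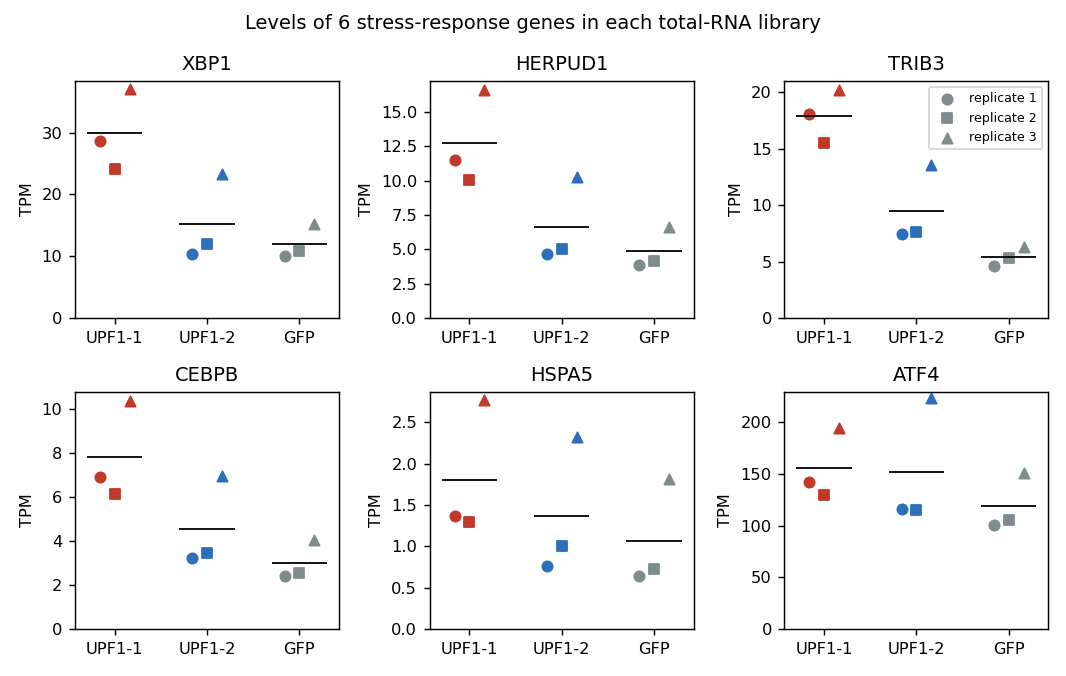
TPM of 6 stress-response genes in each total RNA library, with UPF1-1 left of UPF1-2 and GFP, symbols for the replicate and a bar for the mean of 3. XBP1, HERPUD1, TRIB3 and CEBPB are higher in UPF1-1 than in UPF1-2 in each replicate number, while ATF4 is about level and HSPA5 did not pass the test; replicate 3 is high in every group.

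Genes of protein folding in the endoplasmic reticulum (ER) rose in part. The list of chaperones and folding enzymes also holds the transcription factor gene XBP1, which is counted among its rises. Of its 29 tested genes 9 rose and 1 fell, against 5.49% of all genes higher and 4.02% lower. The list's median was 0.15, with pair medians of 0.18, 0.13 and 0.28. XBP1 (ENSG00000100219), whose spliced form is the transcription factor of the IRE1 arm of the unfolded protein response, had 28.7, 24.2 and 37.0 TPM in UPF1-1 cells, 10.4, 12.04 and 23.3 TPM in UPF1-2 cells and 10.1, 10.8 and 15.3 TPM in GFP cells. No UPF1-2 value of XBP1 reached the lowest UPF1-1 value, and the difference was 0.96 ± 0.07 (limma adjusted p = 0.00049). The listed XBP1 transcript is ENST00000344347, and with 1 transcript per gene the share of spliced XBP1 mRNA cannot be read. HERPUD1 (ENSG00000051108), a membrane protein that organises ER-associated degradation, had 11.5, 10.03 and 16.6 TPM in UPF1-1 cells and 4.66, 5.05 and 10.2 TPM in UPF1-2 cells. It differed by 0.88 ± 0.06 (limma adjusted p = 0.00046), with pair values of 0.93, 0.80 and 0.90. MANF, a secreted factor induced by ER stress, had 8.02, 6.85 and 13.2 TPM in UPF1-1 cells and 3.61, 3.64 and 9.78 TPM in UPF1-2 cells and differed by 0.71. The cyclophilin PPIB (0.54) and the disulphide isomerases PDIA4 (0.53), TXNDC5 (0.45), P4HB (0.26), PDIA6 (0.22) and TXNDC12 (0.21) rose with the co-chaperone DNAJB9 (0.38). The oxidase ERO1L fell by 0.38.

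The best known targets of the unfolded protein response were not all called. HSPA5 (BiP), the main ER chaperone, had 1.37, 1.29 and 2.76 TPM in UPF1-1 cells and 0.765, 1.003 and 2.32 TPM in UPF1-2 cells, a difference of 0.28 ± 0.08 (limma adjusted p = 0.069). HSP90B1 (GRP94), the ER form of HSP90, had 5.22, 4.88 and 6.25 TPM in UPF1-1 cells and 3.48, 4.13 and 8.51 TPM in UPF1-2 cells, a difference of 0.05 ± 0.08 (limma adjusted p = 0.74). As deposited, UPF1-1 was above UPF1-2 for both in replicates 1 and 2, and in replicate 3 above it for HSPA5 and below it for HSP90B1. CALR (0.15), HYOU1 (0.11) and SDF2L1 (0.28) did not pass either. Some called and some uncalled genes carried the same kind of promoter element, and most called folding genes carried neither form searched. The ER stress response element (ERSE, CCAAT and CCACG with 9 bases between them) and its second form (ERSE-II, ATTGG and CCACG with 1 base between them) were searched on both strands in the 250 bases before the RefSeq start of 27305 human genes. ERSE was in 22 of these promoters (0.081%) and ERSE-II in 14 (0.051%). ERSE was found for 6 of 27 ER folding genes with a promoter in the table, namely CALR, CANX, CRELD2, HSP90B1, HSPA5 and XBP1, of which XBP1 alone was called. ERSE-II was found for HERPUD1, which was called, and for HYOU1 and SDF2L1, which were not. Of the 9 folding genes called higher, 1 had an ERSE and 0 had an ERSE-II. Only exact matches were counted, so copies with a changed base are not in these numbers. A match describes letters and does not show a factor's binding. The promoters of XBP1 and HERPUD1 and of the uncalled HSPA5 and HSP90B1 follow, from RefSeq on build GRCh38.p14, read 5′ to 3′ on the gene's strand up to the base before the start, with the elements (either strand) in capitals. XBP1 lies on the minus strand at chr22:28800570-28800819, HERPUD1 on the plus strand at chr16:56931892-56932141, HSPA5 on the minus strand at chr9:125241344-125241593 and HSP90B1 on the plus strand at chr12:103930160-103930409.
XBP1: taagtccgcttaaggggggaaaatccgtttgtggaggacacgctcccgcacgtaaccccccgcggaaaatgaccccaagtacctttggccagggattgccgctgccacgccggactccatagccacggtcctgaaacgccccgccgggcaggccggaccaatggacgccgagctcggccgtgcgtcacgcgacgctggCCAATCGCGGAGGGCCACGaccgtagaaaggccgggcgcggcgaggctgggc
HERPUD1: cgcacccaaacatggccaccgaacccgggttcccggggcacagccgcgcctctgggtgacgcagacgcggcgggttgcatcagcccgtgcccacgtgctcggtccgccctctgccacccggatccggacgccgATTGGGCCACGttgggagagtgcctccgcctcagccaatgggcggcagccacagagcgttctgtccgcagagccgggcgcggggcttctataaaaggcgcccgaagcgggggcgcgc
HSPA5: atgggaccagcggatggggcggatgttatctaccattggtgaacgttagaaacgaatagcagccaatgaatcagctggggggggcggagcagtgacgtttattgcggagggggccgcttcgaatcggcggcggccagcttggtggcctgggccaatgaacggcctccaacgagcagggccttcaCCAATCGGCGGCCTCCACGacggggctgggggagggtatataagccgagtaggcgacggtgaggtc
HSP90B1: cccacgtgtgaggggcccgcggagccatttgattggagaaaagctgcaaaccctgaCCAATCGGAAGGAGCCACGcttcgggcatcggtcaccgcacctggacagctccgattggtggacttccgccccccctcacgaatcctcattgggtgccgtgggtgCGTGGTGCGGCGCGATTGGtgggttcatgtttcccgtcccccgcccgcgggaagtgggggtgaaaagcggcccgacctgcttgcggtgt
The capitals show 1 ERSE each in XBP1 and HSPA5, 1 ERSE-II in HERPUD1 and 2 ERSE, on opposite strands, in HSP90B1.

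Some genes of entry into and exit from the ER rose. Of 37 tested genes of translocation and of the COPII coat 8 rose and none fell, against 5.49% of all genes higher, with a median of 0.08. The 2 subunits of the receptor of the signal recognition particle led them. SRPR had 6.98, 6.99 and 12.5 TPM in UPF1-1 cells and 3.40, 3.91 and 8.53 TPM in UPF1-2 cells, a difference of 0.68 ± 0.06 (limma adjusted p = 0.00078). SRPRB differed by 0.67, the coat subunit SEC23B by 0.53 and the translocon-associated SSR2 by 0.47. In ER-associated degradation 4 of 32 (12.5%, against the same 5.49%) rose, among them HERPUD1, the signal peptide peptidase HM13 (0.52) and VIMP (0.46), and 1 fell, the ubiquitin-conjugating enzyme UBE2G2 (-0.29). The UBE2G2 call was lost with 6 libraries and without replicate 1 or 2, and its sign changed with chromosome medians set equal (0.0062). Counts of rises depended on the pairs. Without replicates 1, 2 and 3 in turn they were 5, 1 and 5 for folding, 5, 1 and 8 for translocation and the COPII coat and 3, 1 and 3 for degradation.

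Some known NMD target RNAs were higher in UPF1-1 cells. Of 32 tested targets 9 rose and none fell, against 5.49% of all genes higher, with a median of 0.11 and pair medians of 0.04, 0.14 and 0.18. Of these, ATF3, DDIT3, GADD45A and SESN2 also stand in the stress list above. CDKN1A, the cell-cycle inhibitor p21, had 8.94, 7.91 and 12.6 TPM in UPF1-1 cells and 5.09, 4.95 and 9.50 TPM in UPF1-2 cells, and differed by 0.53 ± 0.06 (limma adjusted p = 0.0028). The host RNA of small nucleolar RNAs ZFAS1 had 31.7, 28.1 and 19.5 TPM in UPF1-1 cells and 20.1, 20.99 and 18.1 TPM in UPF1-2 cells and differed by 0.33. SNHG15, another such host RNA, differed by 0.30, and the asparagine synthetase ASNS by 0.29. Over a list of such host RNAs 3 of 16 tested rose, ZFAS1, SNHG15 and C6orf48, and 2 fell, SNHG3 (-0.29) and DANCR (-0.28), with a median of -0.11 and 5 of 16 above 0. Host RNAs that rose numbered 2, 0 and 1, and those that fell 0, 0 and 3, without replicates 1, 2 and 3 in turn. Without replicates 1, 2 and 3 in turn 6, 1 and 6 targets rose, and 1 fell without replicate 1. With the 75th percentiles set equal 9 rose and 2 fell.

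The factors of NMD and of the exon junction complex held calls in both directions. Of 24 tested 2 rose and 2 fell (8.33% each), near the 5.49% and 4.02% of all genes, with a median of 0.04. The rises were 2, 1 and 1 and the falls 4, 0 and 1 without replicates 1, 2 and 3 in turn. SMG9, which with SMG8 controls the kinase SMG1, had 9.51, 9.30 and 19.2 TPM in UPF1-1 cells, 3.94, 4.02 and 10.5 TPM in UPF1-2 cells and 4.24, 4.75 and 9.07 TPM in GFP cells. SMG9 was higher in UPF1-1 in each pair, by 0.88, 0.99 and 1.07, and the fitted difference was 0.98 ± 0.06 (limma adjusted p = 0.00046). SMG5, the adaptor that joins phosphorylated UPF1 to decay enzymes and is itself a known NMD target, had 15.2, 14.8 and 26.5 TPM in UPF1-1 cells against 10.8, 11.1 and 23.9 TPM in UPF1-2 cells and differed by 0.28. UPF3B, which links UPF2 to the exon junction complex, had 0.585, 0.513 and 1.099 TPM in UPF1-1 cells and 0.714, 0.835 and 2.52 TPM in UPF1-2 cells and fell by 0.55 ± 0.08 (limma adjusted p = 0.0076). PNRC2, which couples UPF1 to the decapping enzyme, fell by 0.44. Among core factors that did not pass, UPF2 differed by -0.15, UPF3A by -0.36, SMG1 by -0.36 and SMG6 by 0.35. PTBP1 and HNRNPL bind near stop codons and are known to shield mRNAs from UPF1. Their own mRNAs did not pass, with 0.06 ± 0.06 for PTBP1 and 0.11 ± 0.09 for HNRNPL.

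Single mRNAs for general decay and silencing factors were lower in UPF1-1 cells, while the medians of their lists lay near 0, at 0.01 for decapping and 5′ to 3′ decay (12 of 23 above 0), 0.01 for deadenylation (10 of 19 above 0) and -0.07 for microRNA factors (7 of 15 above 0). DCP2, the decapping enzyme, had 3.50, 3.57 and 3.13 TPM in UPF1-1 cells, 4.31, 5.56 and 7.77 TPM in UPF1-2 cells and 5.09, 5.70 and 6.03 TPM in GFP cells. Every UPF1-1 value of DCP2 lay below every UPF1-2 value, and it fell by 0.74 ± 0.08 (limma adjusted p = 0.0028). XRN1, the 5′ to 3′ exonuclease that acts after decapping, fell by 0.34, while LSM14B (0.33) and PNRC1 (0.33) rose, so that 2 of 23 genes of this list rose and 3 fell, against 5.49% of all genes higher and 4.02% lower. Among deadenylation factors 4 of 19 fell and none rose: the deadenylases CNOT6 (-0.48) and CNOT6L (-0.33), the poly(A) nuclease subunit PAN3 (-0.34) and TOB1 (-0.30). Among 15 factors of microRNA processing and silencing 4 fell and none rose. DICER1, which cuts microRNA precursors, had 2.58, 2.38 and 2.82 TPM in UPF1-1 cells and 2.45, 3.27 and 5.86 TPM in UPF1-2 cells and fell by 0.48 ± 0.09. TNRC6A (-0.57), LIN28B (-0.52) and AGO4 (-0.39) were the others.

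In the deposited TPM DICER1 was slightly higher in UPF1-1 than in UPF1-2 in replicate 1 and lower in replicates 2 and 3. With equal medians the pair values of DICER1 were -0.23, -0.51 and -0.71, and those of TNRC6A were -0.10, -0.72 and -0.90. When replicate 1 was left out, the falls were of 2 decapping, 1 deadenylation and 3 microRNA factors. Without replicate 3 no deadenylation or microRNA factor was called, and 2 decapping factors still fell. Without replicate 2 no member of the decapping, deadenylation and microRNA lists was called, and likewise without equal medians. Among hnRNP and PTB proteins, RNA-binding regulators of splicing, 4 of 26 fell, against 4.02% of all genes, and RALY (0.28) rose. The falls were PTBP3 (-0.55), HNRNPA3 (-0.44), HNRNPH3 (-0.38) and HNRNPA2B1 (-0.36), and none of them was called without replicate 2 or without replicate 3. Of 17 SR splicing factors none was called.

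Further lists are set against the same 5.49% of all genes higher and 4.02% lower. Of 22 genes of amino acid synthesis and transport, many of them ATF4 targets, 5 rose and none fell, with ASNS, the transporter subunit SLC3A2 (0.34), the transaminase GPT2 (0.34) and the proline enzyme ALDH18A1 (0.24) among the rises. Of 36 aminoacyl-tRNA synthetases 4 rose, AARS (0.33), MARS (0.30), FARSA (0.23) and SARS (0.22). Rises in each of these lists numbered 0 or 1 when any 1 replicate was left out. Without replicates 1, 2 and 3 in turn 1, 0 and 1 amino acid genes and 0, 0 and 1 synthetases fell. Of 20 p53 targets 5 rose, among them CDKN1A, AEN (0.40) and DDB2 (0.37), and RRM2B fell by 0.50; 4, 0 and 3 rose without replicates 1, 2 and 3. Of 45 DNA replication factors 7 rose, with MCM2 (0.33) and RFC4 (0.41) among them, and 2, 0 and 2 without replicates 1, 2 and 3. Of 20 immediate early genes 3 rose, ATF3, the phosphatase DUSP1 (0.51) and the transcription factor EGR1 (0.47), and 3, 1 and 2 without replicates 1, 2 and 3. Of 25 cytosolic heat shock chaperones 2 fell, HSPA4L (-0.32) and HSP90AA1 (-0.31), and the regulator HSF1 rose by 0.29; without replicates 1, 2 and 3 in turn 1, 0 and 0 fell and none rose. Of 78 cytosolic ribosomal protein mRNAs 1 rose (RPS28, 0.56) and 1 fell (RPL22, -0.23), and of 38 proteasome subunits none was called.

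**Figure D4:**
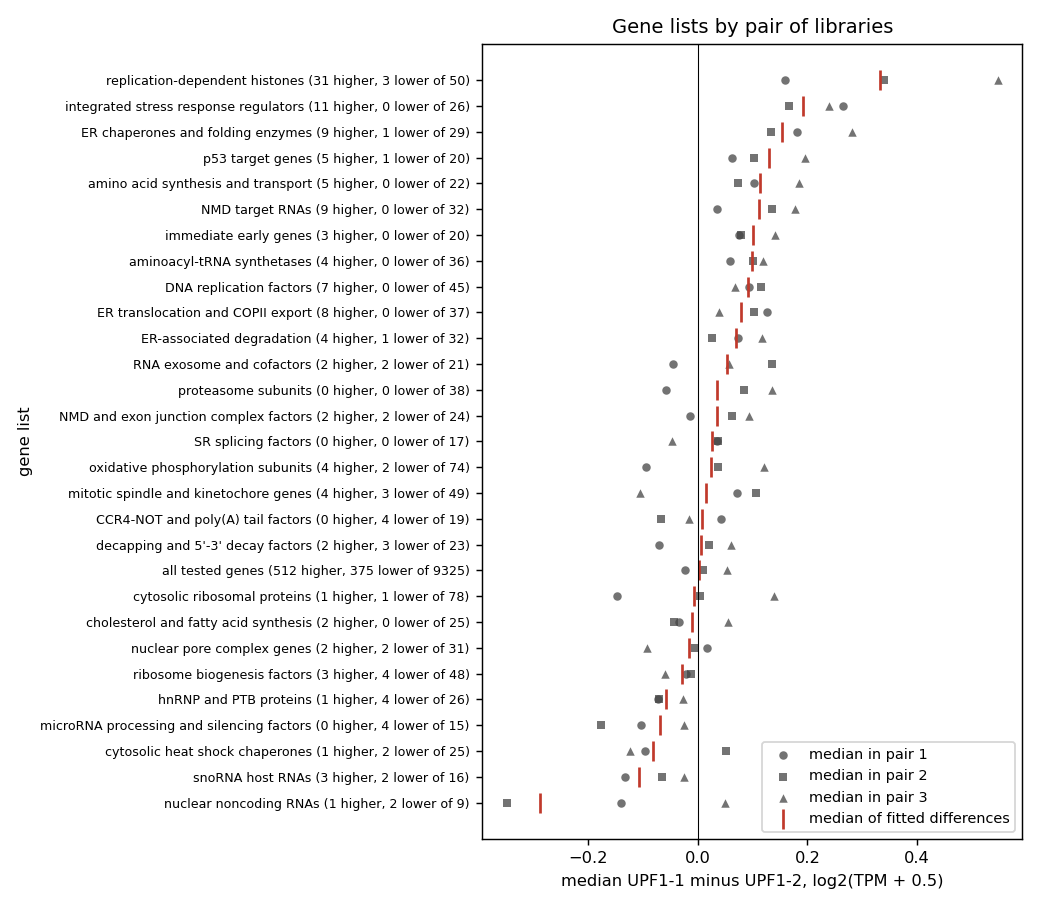
Median difference between UPF1-1 and UPF1-2 (log2 of TPM + 0.5) of each gene list and of all tested genes, for each pair (symbols) and for the fitted values (red mark), with the number of called genes of those tested beside each name. Histones, stress response regulators and ER folding genes have the highest medians, and ribosomal protein mRNAs lie on both sides of 0 in different pairs.

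Replication-dependent histone mRNAs, which end in a stem-loop in place of a poly(A) tail and are degraded with the help of UPF1 when DNA synthesis stops, held the largest share of called genes among the lists. Of 50 tested 31 rose and 3 fell, against 5.49% of all genes higher and 4.02% lower, with a median of 0.33. The pair medians were 0.16, 0.34 and 0.55. HIST2H2AA4 had 2436, 2206 and 2401 TPM in UPF1-1 cells and 1488, 1502 and 1886 TPM in UPF1-2 cells, a difference of 0.48 ± 0.07 (limma adjusted p = 0.0074). HIST1H3B had 2345, 2199 and 2340 TPM in UPF1-1 cells and 1527, 1471 and 1823 TPM in UPF1-2 cells and differed by 0.46. Neither gene's groups overlapped. The 3 falls were HIST1H2BI (-0.99), HIST1H2BG (-0.75) and HIST1H2AE (-0.59). HIST1H2BG had 19.2, 17.7 and 20.5 TPM in UPF1-1 cells, 30.6, 28.4 and 34.8 TPM in UPF1-2 cells and 30.1, 31.1 and 34.1 TPM in GFP cells, so that UPF1-1 lay below both. Histone genes have near-identical copies, so how reads were divided among them is uncertain. Without replicates 1, 2 and 3 in turn 38, 0 and 11 histone genes rose. The replication factors above had a median of 0.09. The share of cells in S phase was not measured, and its part was not tested; in bulk RNA a changed share of cells and a changed level per cell cannot be told apart.

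The largest falls were in genes of mixed kind, several with close copies. FABP5, a fatty acid carrier, had 3.17, 3.67 and 6.29 TPM in UPF1-1 cells and 4.49, 4.89 and 13.2 TPM in UPF1-2 cells and fell by 0.67 ± 0.07 (limma adjusted p = 0.0027). Its processed copy FABP5P7 fell by 0.75, and reads of the 2 genes may have been shared. The same holds for HNRNPA1P48, which had 0.599, 0.748 and 50.5 TPM in UPF1-1 cells and 1.49, 1.56 and 61.6 TPM in UPF1-2 cells, far higher in replicate 3 of both lines, and for SNX29P2 (-0.75), GTF2H2C (-0.60) and SNORD3B-1 (-0.58). HNRNPA1P48 averaged 5 TPM or more only through replicate 3. Its fall of 0.68 came from the other replicates, with few TPM, at pair values of -1.15, -0.85 and -0.05. CWF19L1, a homologue of a yeast splicing factor, had 3.92, 4.11 and 5.55 TPM in UPF1-1 cells against 6.08, 5.44 and 9.89 TPM in UPF1-2 cells and fell by 0.63 ± 0.08. RABEP1, an effector of endosomal Rab proteins, fell by 0.52, and KIF5B, a kinesin heavy chain that carries organelles, by 0.48. KIF5B was nearly level in replicate 1, with 6.58, 6.50 and 6.30 TPM in UPF1-1 cells and 6.60, 7.93 and 13.1 TPM in UPF1-2 cells. Of the 12 largest falls 7 were called without equal medians and 2, FABP5P7 and FABP5, without replicate 2.

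The differences were unevenly spread over the chromosomes. This was noticed after the values were seen, and the 8923 genes were placed by RefSeq's annotation. On chromosome 21 no gene was higher in UPF1-1 and 37 of 88 were lower (42.0%), against 4.02% of all genes, with a median of -0.25. The pair medians were -0.26, -0.20 and -0.22. SOD1, the cytosolic superoxide dismutase, had 181, 181 and 203 TPM in UPF1-1 cells, 181, 184 and 278 TPM in UPF1-2 cells and 200.3, 224 and 239 TPM in GFP cells and fell by 0.22 ± 0.06. HMGN1 (-0.38), a nucleosome-binding protein, CBR1 (-0.37), a carbonyl reductase, and U2AF1 (-0.34), a splicing factor, were among the most abundant of the 37, and WRB (-0.50), UBE2G2, ATP5J (-0.34), ATP5O (-0.25) and RRP1B (-0.34) belong to them too. With chromosome medians set equal UBE2G2 and ATP5O changed sign (0.0062 and 0.0507). SOD1, HMGN1, CBR1 and U2AF1 were chosen after their values were seen. Relative to GFP cells the chromosome's median was -0.23 in UPF1-1 and 0.01 in UPF1-2, with the GFP libraries shared by both. Without replicates 1, 2 and 3 in turn 15, 0 and 19 genes of chromosome 21 were called lower, and its median was -0.21, -0.26 and -0.26.

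On chromosome 20 the shift was upward. There 67 of 235 genes were higher in UPF1-1 (28.5%, against 5.49% of all genes) and 2 lower, with a median of 0.18 and pair medians of 0.13, 0.17 and 0.25. UBE2C, the ubiquitin-conjugating enzyme of the anaphase-promoting complex, had 56.4, 56.0 and 72.7 TPM in UPF1-1 cells, 36.5, 36.8 and 60.2 TPM in UPF1-2 cells and 28.5, 30.9 and 37.7 TPM in GFP cells and differed by 0.44 ± 0.06. Relative to GFP cells the median of chromosome 20 was 0.37 in UPF1-1 and 0.19 in UPF1-2. TRIB3, CEBPB, HM13, SEC23B, ZFAS1, RAE1 (0.48) and RALY lie on chromosome 20. Without replicates 1, 2 and 3 in turn 27, 2 and 19 genes of chromosome 20 were called higher, and its median was 0.20, 0.19 and 0.14. On chromosome 16, 57 of 449 genes rose (12.7%, against 5.49% of all genes) and 6 fell (1.34%), with a median of 0.07. On chromosome 13 no gene rose and 18 of 166 fell (10.8%, against 4.02% of all genes), with a median of -0.14. The medians of chromosomes 16 and 13 were largest in pair 3, at 0.17 and -0.23. Without replicates 1, 2 and 3 in turn 29, 1 and 17 genes of chromosome 16 were higher, and 13, 0 and 5 genes of chromosome 13 were lower. HERPUD1, NUPR1 and TNFRSF12A lie on chromosome 16. DNA copy number was not measured, and its part in these differences was not tested.

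In the libraries purified with the tagged proteins, the median of chromosome 21 was -0.35, -0.36 and -0.33 in pairs 1, 2 and 3, and that of chromosome 20 was 0.12, 0.14 and 0.12. Chromosome 16 was below 0 there, at -0.06, -0.03 and -0.03, and chromosome 13 was at -0.02, -0.05 and -0.10. The medians over the pairs were 0.15 for chromosome 18 and -0.12 for chromosome 19, about as far from 0 as that of chromosome 20 (0.13). With each chromosome's median set equal between libraries, a setting chosen after seeing the data, 672 genes were called, of which 568 were among the 887. All 12 of the largest rises were then still called, TRIB3 included. Without the genes of chromosomes 13, 16, 20 and 21, 7 of 22 stress response regulators rose, 9 of 27 ER folding genes rose and 1 fell, 7 of 36 genes of translocation and the COPII coat rose, 8 of 28 NMD targets rose and 1 of 28 genes of ER-associated degradation rose. Of all genes placed outside these chromosomes 371 of 7985 were higher and 292 lower, and 402 tested genes had no chromosome.

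**Figure D5:**
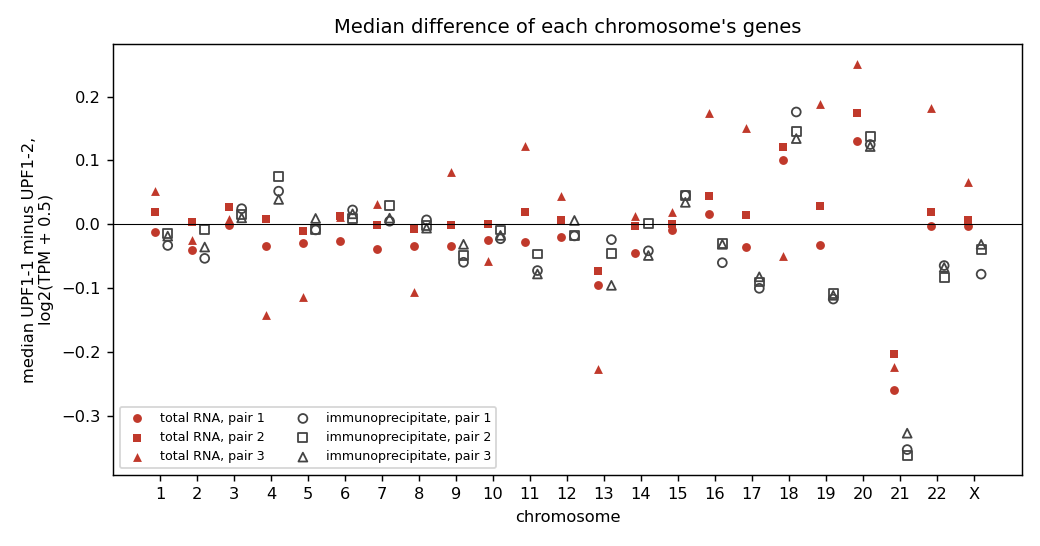
Median difference between UPF1-1 and UPF1-2 (log2 of TPM + 0.5) of the tested genes on each chromosome, with filled symbols for the 3 pairs of total RNA and open symbols for the 3 pairs of purified RNA. Chromosomes 21 and 13 lie below and chromosome 20 above 0 in all 6 pairs, while chromosomes such as 19 and 22 are high only in pair 3 of total RNA.

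The purified RNA gave separate libraries from the same 2 lines. Of the 512 genes higher in UPF1-1 total RNA 365 (71.3%) were also higher in RNA purified with UPF1-1 on average, and 286 (55.9%) in all 3 pairs, against 46.7% and 32.3% of all tested genes. Of the 375 lower genes 238 (63.5%) were lower in the purified RNA, and 185 (49.3%) in all 3 pairs, against 53.3% and 38.1% of all tested genes. Across the 9325 genes the total and purified differences correlated weakly, with Pearson's r of 0.14 and Spearman's rho of 0.10, where genes are not independent replicates. The purified difference was 1.06 for XBP1 (0.96 in total RNA), 0.94 for HERPUD1 (0.88), 0.96 for MANF (0.71) and 0.87 for TRIB3 (0.86). It was 0.32 for SMG9 (0.98 in total RNA), 0.22 for DDIT3 (0.67), -0.17 for DCP2 (-0.74), 1.34 for ZFAS1 (0.33) and -1.24 for HIST1H2BG (-0.75), and the difference between the readouts was not tested. ASNS (-0.53), AARS (-0.28) and SEC23B (-0.21), which rose in total RNA, were below 0 in purified RNA. Some falls also lay on the other side of 0 there, among them PNRC2 (0.32) and PTBP3 (0.28). Of the deadenylation factors that fell, CNOT6L (0.27), CNOT6 (0.22) and PAN3 (0.04) were above 0 in purified RNA and TOB1 (-0.20) below. UPF1 itself differed by 0.03 there. The median of the stress response list was 0.28 and that of the ER folding list 0.38 in purified RNA, against -0.02 for all genes. ER-associated degradation was at 0.36 and translocation and the COPII coat at 0.23. NMD targets were at 0.05, and histones were at 0.10, with pairs at -0.03, 0.27 and 0.06, against 0.33 in total RNA. Aminoacyl-tRNA synthetases (-0.28), amino acid genes (-0.12) and DNA replication factors (-0.12) lay below 0 in purified RNA and above 0 in total RNA (0.10, 0.11 and 0.09).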

How the data were processed

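Total RNA (1 µg) was depleted of ribosomal RNA with Ribo-Zero and made into TruSeq libraries, per the labels' protocols. The submitters' processing notes name cutadapt, kallisto, sleuth and build hg19, and give no version of the tools. TPM per library, with 1 Ensembl transcript per gene, was what the authors deposited, per the file headers. TPM keeps no depth, so the depth and counting intervals are unknown. The deposited fold and q columns were not used. No listed gene averaged under 0.25 TPM in any group of total RNA; rarer transcripts were not analysed here.

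Values were taken as log2(TPM + 0.5). Genes that reached 1 TPM or more in 3 or more of 9 libraries were kept (9325 of 12261), and library medians were set equal. The model, limma 3.58.1 under R 4.3.3 with a variance trend, held the group and the replicate number as a block. Tests were 2-sided with Benjamini-Hochberg adjustment over all tested genes and a threshold of 0.05. The fit was tested on simulated data. The pairing comes from the shared replicate numbers in the labels. Deviations from the group means correlated at r of 0.70 to 0.95 over 9 same-numbered library pairs. Numbers 1 and 2 also correlated, at 0.64 to 0.80, which overlaps the same-numbered range, and replicate 3 against them at -0.89 to -0.72. The values thus set replicate 3 apart, while the matching of numbers 1 and 2 rests on the labels. The pair differences correlated across genes at r of 0.48 (pairs 1 and 2), 0.24 (1 and 3) and 0.40 (2 and 3).

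Named genes were UPF1, then the 12 largest rises and the 12 largest falls among called genes that averaged 5 TPM or more and had the same sign in all 3 pairs (385 genes were eligible), then per list up to 4 called members and central members whatever their value. A few such members are not reported here. Members called beyond these, and genes of single chromosomes and families, were chosen after their values were seen. The comparison, its lists and this rule were chosen with earlier results of these data known. Lists are described by counts and medians, without a test. Of the 9325 genes 8923 were placed on a chromosome through current symbols and RefSeq's GRCh38.p14 annotation. Promoters are RefSeq's. The alternatives were fits without the block, without equal medians, with 75th percentiles, 6 libraries, other pseudocounts and filters, no trend and without each replicate number.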

Additional observations from a re-analysis of the deposited data

How the results depend on the processing

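Counts are given as all, higher and lower genes in UPF1-1 total RNA against UPF1-2, which were 887, 512 and 375. With no replicate block they were 0, 0 and 0 (477, 267 and 210 at an unadjusted p under 0.05), and with neither block nor equal medians 0, 0 and 0 (89, 70 and 19). With the block but without equal medians they were 89, 74 and 15. With 75th percentiles set equal they were 938, 347 and 591, with 6 libraries 288, 159 and 129, with a filter of 5 TPM 452, 279 and 173, and with chromosome medians set equal, a setting chosen after seeing the data, 672, 387 and 285. Without a filter 867, 578 and 289 genes were called, with a pseudocount of 0.1 772, 445 and 327, with a pseudocount of 1 934, 551 and 383, and without a trend 808, 449 and 359. Leaving out a replicate number gave 17 to 451, 13 to 250 and 4 to 201 genes, lowest without replicate 2. The median of all genes moved to 0.06 without equal medians and to -0.04 with the 75th percentiles.

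The UPF1 difference of 0.31 had no call with no replicate block (0.31), without equal medians with and without the block (0.37), with 6 libraries (0.30), with a pseudocount of 0.1 (0.30) or with chromosome medians set equal (0.23), and was 0.27 to 0.34 when a replicate was left out. Some differences that had not passed changed sign: PTBP1 (-0.0166 with chromosome medians), ATF4 (-0.0148 with 75th percentiles, -0.0048 with a filter of 5 TPM, -0.0501 with chromosome medians), and RBM8A (0.0525 without equal medians, 0.00048 with a pseudocount of 1, 0.0214 without a filter). The called falls of UBE2G2 (-0.29) and ATP5O (-0.25) turned to 0.0062 and 0.0507 with chromosome medians, without a call. With a replicate left out PTBP1 ranged over -0.0225 to 0.119, HNRNPL over -0.0373 to 0.235, CASC3 over -0.0107 to 0.125 and RBM8A over -0.0313 to 0.0040. Of 123 single named genes 109 were called. The call was lost in all 109 with no replicate block, in 78 without equal medians, in 43 with 6 libraries, in 18 with chromosome medians set equal and in 36, 97 and 47 without replicates 1, 2 and 3, with the same direction. The cause was not tested. Depth is unknown, and the labels do not say what the replicates share.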

Other observations

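Further gene families were looked at after the values were seen, by symbol and without a test. Of 16 tested subunits of the COPI coat, which carries vesicles back from the Golgi to the ER, and ARF GTPase-activating proteins, 5 were higher in UPF1-1 cells than in UPF1-2 cells and none lower, against 5.49% of all genes higher, with a median of 0.15. COPG1 had 13.5, 12.4 and 19.6 TPM in UPF1-1 cells and 7.19, 7.88 and 15.7 TPM in UPF1-2 cells, a difference of 0.54 ± 0.06 (SE, limma adjusted p = 0.0037). ARFGAP1 (0.50), COPA (0.38), ARFGAP2 (0.32) and COPE (0.25) were the others, and ARFGAP1 lies on chromosome 20. Among genes of glutathione and oxidative stress 3 of 26 rose (11.5%) and 1 fell (3.85%), against 5.49% of all genes higher and 4.02% lower. The family's median was 0.01, with 14 of 26 above 0 and pair medians of -0.05, 0.00 and 0.11. The rises were HMOX1, GSTP1 (0.62), a glutathione transferase, and the autophagy receptor SQSTM1 (0.30), and SOD1 fell. GSTP1 had 15.7, 17.7 and 19.4 TPM in UPF1-1 cells and 10.1, 9.51 and 12.9 TPM in UPF1-2 cells, with pair values of 0.32, 0.74 and 0.81.

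ID2, an inhibitor of helix-loop-helix transcription factors, was the 1 of 4 ID genes that was called, and fell by 0.41 ± 0.06. Kinesins had 3 of 24 lower, KIF5B, KIF14 (-0.41) and KIF2A (-0.37), and none higher, against 4.02% of all genes lower. Zinc finger genes of the ZNF type had 11 of 260 higher and 8 lower, solute carriers 8 of 105 higher and 3 lower, mitochondrial ribosomal proteins 1 of 76 higher and none lower, and lncRNAs 9 of 265 higher and 12 lower, all near the shares of all genes or below them in the rises except the solute carriers (7.62%). On chromosome 18 the median was 0.18 in UPF1-1 and 0.13 in UPF1-2 relative to GFP cells, whose libraries both share, and 0.05 between the UPF1 lines.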
